A study of Sus scrofa with 12 samples.

Results

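The fucosyltransferases behind the SSEA1 antigen and a set of stem cell and fibroblast surface markers were followed through pig embryonic stem cells (ESCs) and fetal fibroblasts. Of 10 genes named for the purpose (FUT4, FUT9, FUT8, FUT10, FUT11, PODXL, CD9, ALPL, CD44 and THY1), 9 were found by symbol among the 30012 loci of the expression table. FUT11 was found under no symbol and was not analysed here. Where a symbol had several loci, the annotated locus with the highest mean level represented it, and all 9 genes were among the 18278 loci tested.

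SSEA1 is a carbohydrate, the Lewis x structure, and not the product of a gene of its own. FUT4 and FUT9 encode enzymes of the Golgi that complete it by moving fucose from GDP-fucose onto a terminal N-acetyllactosamine unit of a glycan. The antigen marks pluripotent cells of the mouse, whereas human pluripotent cells are known for globo-series antigens and for epitopes carried by podocalyxin. Alkaline phosphatase activity and the tetraspanin CD9 are general markers of pluripotent cells, and CD44 and THY1 are abundant on fibroblasts and mesenchymal cells.

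RNA was measured in 12 libraries, 3 for each of 4 groups. The lines were Parthenogenetic ESC-7 and Parthenogenetic ESC-3 (below, ESC-7 and ESC-3), derived from eggs activated without sperm, and IVF-derived ESC-11 (below, ESC-11), from in vitro fertilisation. Fibroblasts came from a fetus at 30 days post coitum and were used at passage 6. All ESCs grew on feeder cells with 20 ng/mL FGF2, 5 ng/mL ActA, 1.5 µM CH and 2.5 µM IWR-1, with 10 µM Y-27632 added around each passage. Per the labels, ESCs were sorted on magnetic columns for SSEA1 before RNA extraction, and no such sort is stated for fibroblasts. The sort and the ESC culture are shared by all lines, so their part in a difference from fibroblasts cannot be told apart from cell type. Each ESC group is 1 line, so a difference between the parthenogenetic lines and the IVF line cannot be told apart from a difference between individual lines. Whether replicate libraries were grown as separate cultures is not stated in the labels, so p-values here measure library-to-library spread alone, and that spread may be technical.

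Levels are given in FPKM, a count of fragments divided by transcript length and by the library's mapped fragments. Differences are of log2(FPKM + 1), which understates the change of genes near 0. Loci were called in limma, fitted over all tested loci, where the log2 difference was at least 1 in size and the Benjamini-Hochberg adjusted p was under 0.05, and "rose" and "fell" are used only of called loci. The libraries held 21898 to 24100 loci above 0 with medians of 4.59 to 5.05 FPKM, and their depth is unknown. Their composition differed. Loci under 300 bp held 70.7% to 75.5% of the summed FPKM in ESC-7 and ESC-3 and 54.8% to 60.7% in ESC-11, against 70.7% to 80.6% in fibroblasts.

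The labelled cell types were checked against marker lists. The 8 pluripotency markers, POU5F1, NANOG and SOX2 among them, summed to 2558 to 2608 FPKM in ESC-7, 2773 to 2825 in ESC-3 and 2831 to 2896 in ESC-11, against 1.32 to 1.78 in fibroblasts, where DPPA4 was at 0. The 10 fibroblast markers summed to 16.2 to 20.2 FPKM in ESC-7, 14.2 to 31.4 in ESC-3 and 15.4 to 16.4 in ESC-11, against 9286 to 9595 in fibroblasts. LUM and TWIST1 were at 0 in ESC-3, and POSTN was at 0 in ESC-11. Endothelial, blood, trophectoderm, endoderm and mesoderm lists each summed to at most 2.89 FPKM in every ESC library. The neural list was higher, at 51.6 to 59.2 FPKM in ESC-7, 237 to 272 in ESC-3 and 144 to 153 in ESC-11, against 156 to 166 in fibroblasts. Its genes did not move together. PAX6 and NES fell in all 3 lines against fibroblasts, and PAX6 was at 0 in ESC-7 and ESC-3. TUBB3 rose in ESC-3 and fell in ESC-7.

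**Figure D1:**
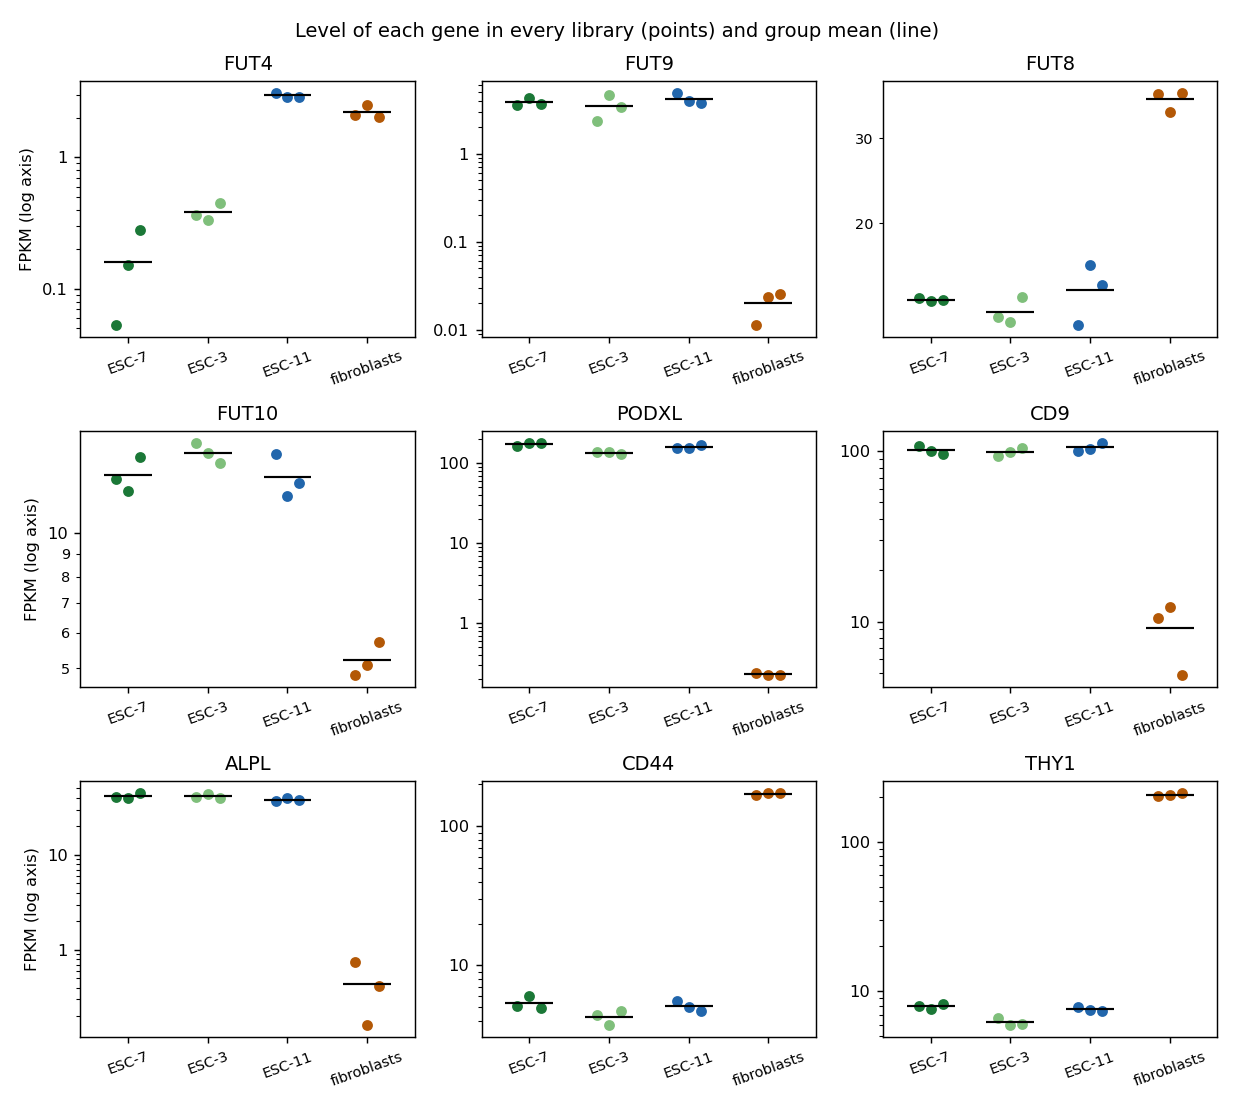
Level of the 9 genes in every library, as FPKM on log axes that differ between panels. Points are libraries and lines are means of 3. FUT9, FUT10, PODXL, CD9 and ALPL are higher in all 9 ESC libraries than in fibroblasts, FUT8, CD44 and THY1 are lower, and FUT4 separates ESC-7 and ESC-3 from ESC-11.

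Against fibroblasts, 5 of the 9 genes rose in ESC-7 (FUT9, FUT10, PODXL, CD9 and ALPL) and 4 fell (FUT4, FUT8, CD44 and THY1). The counts were 5 and 4 in ESC-3 and 5 and 3 in ESC-11, where FUT4 was not called. ESCs and fibroblasts differ widely: 43.4% of all tested loci were called in ESC-7, 44.1% in ESC-3 and 42.9% in ESC-11, so calls among genes named as markers of these cell types carry little on their own. By direction, 29.2% of loci rose and 14.3% fell in ESC-7, 28.6% and 15.5% in ESC-3, and 27.4% and 15.5% in ESC-11. The 3 comparisons share the fibroblast libraries and are not independent. FUT9, PODXL and ALPL passed the filter on low values through their ESC libraries alone. FUT4 passed it through its ESC-11 and fibroblast libraries alone, the groups where it is high. Of the list genes named below, FUT2, B3GNT3, GCNT2, ST6GAL2, B3GALNT1, EPCAM and ESRP1 passed it through ESC libraries alone and could only rise. DPP4, FAP and SPP1 passed it through fibroblast libraries alone and could only fall. The list counts below include such genes. In bulk RNA, fewer cells expressing a gene and less of its RNA per cell cannot be told apart.

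FUT4 and FUT9 changed in opposite directions in the parthenogenetic lines. FUT4 lies on chromosome 9 (ENSSSCG00000014958, chr9:30433605-30439942, plus strand, Sscrofa10.2). Its level was 0.0531, 0.150 and 0.278 FPKM in the ESC-7 libraries and 0.362, 0.333 and 0.452 FPKM in the ESC-3 libraries. It was 3.11, 2.91 and 2.88 FPKM in the ESC-11 libraries, against 2.097, 2.504 and 2.048 FPKM in the fibroblast libraries. All 6 parthenogenetic libraries were thus below 1 FPKM, and all 6 others were above 2 FPKM. FUT4 fell in ESC-7 to 7.25% of the fibroblast mean (log2 difference -1.47 ± 0.08 SE, adjusted p = 2.71e-08, limma). In ESC-3 it fell to 17.3% (-1.22 ± 0.08, adjusted p = 1.31e-07, limma). ESC-11 was at 134% of the fibroblast mean, a log2 difference of 0.31 ± 0.08 (adjusted p = 0.00528, limma) that was under the fold minimum and became -0.05 after quantile normalization and -0.00 after median-ratio scaling.

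FUT9, the enzyme with the stronger preference for the outermost N-acetyllactosamine unit, is on chromosome 1 (ENSSSCG00000004338, chr1:71433571-71789936, plus strand). It was at 3.63, 4.36 and 3.70 FPKM in ESC-7, at 2.36, 4.61 and 3.44 FPKM in ESC-3 and at 4.96, 3.95 and 3.79 FPKM in ESC-11, against 0.0113, 0.0238 and 0.0252 FPKM in fibroblasts. The lowest ESC library, in ESC-3, was still far above all fibroblast libraries. FUT9 rose by 2.26 ± 0.16 on the log2 scale in ESC-7 (adjusted p = 2.09e-07, limma), by 2.1 ± 0.16 in ESC-3 (3.79e-07) and by 2.35 ± 0.16 in ESC-11 (1.48e-07). As ratios of mean FPKM these were 194-fold, 173-fold and 211-fold over a fibroblast mean of 0.0201 ± 0.00764 FPKM (SD, n = 3), a level so near 0 that the ratios are rough. FUT9 was nevertheless a modest transcript in ESCs, at percentiles 30.0, 29.8 and 33.0 of the tested loci in ESC-7, ESC-3 and ESC-11.

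Both genes were then set against each other on the FPKM scale, which is per transcript length. FUT4 supplied 3.92% ± 2.82 of the summed FUT4 and FUT9 level in ESC-7, 10.6% ± 3.42 in ESC-3 and 41.4% ± 2.48 in ESC-11, against 99.1% ± 0.341 in fibroblasts (SD, n = 3 each). The libraries spanned 1.44% to 6.99% in ESC-7, 6.74% to 13.3% in ESC-3 and 38.6% to 43.2% in ESC-11, against 98.8% to 99.5% in fibroblasts. ESC-7 and ESC-3 overlapped in this share, and neither overlapped ESC-11 or fibroblasts. The sum itself was 4.06 ± 0.418 FPKM in ESC-7, 3.85 ± 1.11 in ESC-3 and 7.20 ± 0.761 in ESC-11, against 2.24 ± 0.253 in fibroblasts.

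**Figure D2:**
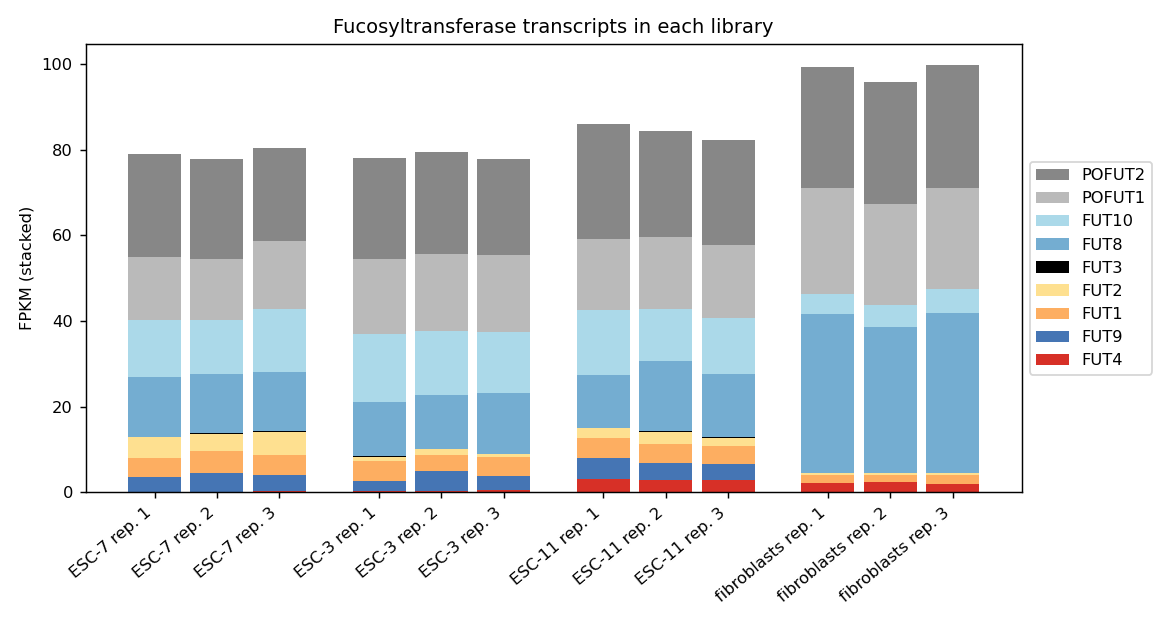
Stacked FPKM (vertical axis, linear from 0) of the 9 fucosyltransferase genes with a locus, with 1 bar for each of the 12 libraries. FUT8 is the largest part of each fibroblast bar, at 35.6% to 37.4%, and FUT4 makes up 1.44% to 6.99% of the FUT4 and FUT9 sum in ESC-7, 6.74% to 13.3% in ESC-3 and 38.6% to 43.2% in ESC-11, against 98.8% to 99.5% in fibroblasts.

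FUT8, which adds the core fucose to the innermost N-acetylglucosamine of N-glycans and makes no Lewis x, fell in all 3 lines. The gene is on chromosome 7 (ENSSSCG00000002283, chr7:95815026-96101112, plus strand). Its level was 14.0, 13.8 and 13.9 FPKM in ESC-7, 12.8, 12.5 and 14.1 FPKM in ESC-3 and 12.3, 16.4 and 14.9 FPKM in ESC-11, against 37.0, 34.1 and 37.3 FPKM in fibroblasts. No ESC library reached 17 FPKM and no fibroblast library was under 34 FPKM. The log2 differences were -1.32 ± 0.09 in ESC-7 (adjusted p = 1.09e-07, limma), -1.40 ± 0.09 in ESC-3 (6.5e-08) and -1.27 ± 0.09 in ESC-11 (1.51e-07), at 38.4%, 36.3% and 40.2% of the fibroblast mean.

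FUT10 is a family member placed with the alpha-3-fucosyltransferases by its sequence, and its acceptor is less settled. Its locus carries the symbol but is marked as absent from the annotation (XLOC_025674, scaffold GL893420.1, positions 2428 to 6939, minus strand). It was at 13.2, 12.4 and 14.8 FPKM in ESC-7, at 15.9, 15.1 and 14.3 FPKM in ESC-3 and at 15.0, 12.1 and 12.9 FPKM in ESC-11, against 4.82, 5.08 and 5.71 FPKM in fibroblasts. All ESC libraries were above all fibroblast libraries. FUT10 rose by 1.22 ± 0.09 in ESC-7, 1.38 ± 0.09 in ESC-3 and 1.21 ± 0.09 in ESC-11 on the log2 scale (adjusted p = 2.68e-07, 9.39e-08 and 2.91e-07, limma). The median of all tested loci was itself 0.45, 0.43 and 0.39 higher in ESC-7, ESC-3 and ESC-11 than in fibroblasts, and relative to it FUT10 was 0.77, 0.94 and 0.81 higher, under the fold minimum. Its log2 difference was 0.90 in ESC-7 and 0.95 in ESC-11 after quantile normalization, and 0.80, 0.97 and 0.84 in ESC-7, ESC-3 and ESC-11 after median-ratio scaling, which ended those calls.

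Of the wider fucosyltransferase family, 9 genes had a locus and 8 were tested. Of these, 4 rose and 2 fell in ESC-7, 2 rose and 2 fell in ESC-3, and 3 rose and 1 fell in ESC-11. These counts are to be read against the shares of all loci given above. The list's median log2 difference was 0.36, 0.09 and 0.62, beside 0.45, 0.43 and 0.39 for all loci. FUT2, which makes the H blood group structure on epithelial glycans, averaged 4.76 ± 0.600 FPKM in ESC-7, 1.04 ± 0.231 in ESC-3 and 2.34 ± 0.556 in ESC-11, against 0.478 ± 0.0735 in fibroblasts. It rose in ESC-7 and ESC-11, and its call in ESC-11 was lost after quantile normalization (0.62) and median-ratio scaling (0.99). A pseudocount of 5 ended both calls, at 0.83 in ESC-7 and 0.42 in ESC-11. FUT3, another Lewis-type fucosyltransferase, was at most 0.226 FPKM in any ESC library and at 0 in fibroblasts, and it was not tested. The protein O-fucosyltransferases POFUT1 and POFUT2 ranged from 14.4 to 17.9 and from 21.6 to 27.0 FPKM over ESC libraries, against means of 23.9 ± 0.632 and 28.5 ± 0.201 in fibroblasts, and neither was called. The 9 genes summed to 77.8 to 80.3 FPKM in ESC-7, 77.9 to 79.5 in ESC-3 and 82.2 to 86.1 in ESC-11, against 95.9 to 99.7 in fibroblasts.

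The stem cell surface genes PODXL, CD9 and ALPL were high in every ESC library. PODXL encodes podocalyxin, a sialomucin whose glycans carry epitopes used to recognise human pluripotent cells (ENSSSCG00000016548, chr18:18529476-18581935, plus strand). Its level was 165, 179 and 180 FPKM in ESC-7, 139, 140 and 129 FPKM in ESC-3 and 155, 157 and 168 FPKM in ESC-11, against 0.240, 0.226 and 0.224 FPKM in fibroblasts. It stood at percentiles 94.2, 93.0 and 94.2 of the tested loci in ESC-7, ESC-3 and ESC-11, against 10.4 in fibroblasts. PODXL rose by 7.16 ± 0.05 in ESC-7, 6.80 ± 0.05 in ESC-3 and 7.03 ± 0.05 in ESC-11 on the log2 scale (adjusted p = 4.37e-15, 5.92e-15 and 5.06e-15, limma), the widest differences among the 9 genes.

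CD9, a tetraspanin that organises integrins and other partners in the membrane, lies on chromosome 5 (ENSSSCG00000022230, chr5:66879692-66919401, minus strand). A second locus with the symbol was at 0 in all 12 libraries. CD9 was at 107, 99.9 and 96.5 FPKM in ESC-7, at 93.4, 99.3 and 104 FPKM in ESC-3 and at 100.1, 104 and 112 FPKM in ESC-11, against 10.6, 12.1 and 4.85 FPKM in fibroblasts. Fibroblasts thus held a measurable level, and their 3 libraries spread more than those of any ESC line in proportion to the mean. CD9 rose by 3.41 ± 0.24, 3.38 ± 0.24 and 3.46 ± 0.24 on the log2 scale in ESC-7, ESC-3 and ESC-11 (adjusted p = 1.76e-07, 1.84e-07 and 1.52e-07, limma), or 10.998-fold, 10.8-fold and 11.5-fold in mean FPKM.

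ALPL, the tissue-nonspecific alkaline phosphatase held in the membrane by a glycosylphosphatidylinositol (GPI) anchor, lies on an unplaced scaffold (ENSSSCG00000026431, scaffold GL893988.2, positions 4108 to 34736, plus strand). It was at 40.4, 39.8 and 44.9 FPKM in ESC-7, at 40.9, 43.3 and 39.9 FPKM in ESC-3 and at 37.3, 39.2 and 37.9 FPKM in ESC-11, against 0.736, 0.161 and 0.418 FPKM in fibroblasts. All fibroblast libraries were below 1 FPKM. ALPL rose by 4.91 ± 0.12 in ESC-7, 4.90 ± 0.12 in ESC-3 and 4.79 ± 0.12 in ESC-11 on the log2 scale (adjusted p = 3.24e-11, 3.22e-11 and 3.96e-11, limma).

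CD44 and THY1 were among the more abundant transcripts of fibroblasts and fell in each ESC line. CD44 is the main cell surface receptor for hyaluronan (ENSSSCG00000013297, chr2:28156266-28374853, minus strand). It was at 5.09, 6.00 and 4.98 FPKM in ESC-7, at 4.39, 3.72 and 4.73 FPKM in ESC-3 and at 5.60, 5.02 and 4.75 FPKM in ESC-11, against 167, 173 and 174 FPKM in fibroblasts. No ESC library was above 6.1 FPKM. The log2 differences were -4.77 ± 0.08, -5.03 ± 0.08 and -4.82 ± 0.08 in ESC-7, ESC-3 and ESC-11 (adjusted p = 3.33e-12, 2.28e-12 and 3.16e-12, limma).

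THY1, listed as CD90, is a GPI-anchored glycoprotein of fibroblasts, neurons and T cells (ENSSSCG00000015122, chr9:51638648-51644318, minus strand). Its level was 7.98, 7.59 and 8.28 FPKM in ESC-7, 6.63, 5.94 and 6.07 FPKM in ESC-3 and 7.87, 7.51 and 7.45 FPKM in ESC-11, against 202, 205 and 213 FPKM in fibroblasts. ESC libraries all lay below 9 FPKM. The log2 differences were -4.54 ± 0.05, -4.85 ± 0.05 and -4.59 ± 0.05 in ESC-7, ESC-3 and ESC-11 (adjusted p = 8.78e-14, 6.16e-14 and 8.18e-14, limma).

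The ESC levels of CD44 and THY1 were low but not at 0. CD44 kept 3.12%, 2.50% and 2.99% of its fibroblast mean in ESC-7, ESC-3 and ESC-11. THY1 kept 3.84%, 3.00% and 3.68%. The other mesenchymal surface markers that fell in every line lay on both sides of these values. PDGFRB was at 1.10%, 1.15% and 0.981% of its fibroblast mean in ESC-7, ESC-3 and ESC-11, and FAP at 0.0740%, 0.267% and 0.253%. The integrin subunit ITGA5 was at 12.2%, 7.04% and 6.89%, and the TGF-beta co-receptor ENG at 16.8%, 17.5% and 18.5%.

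**Figure D3:**
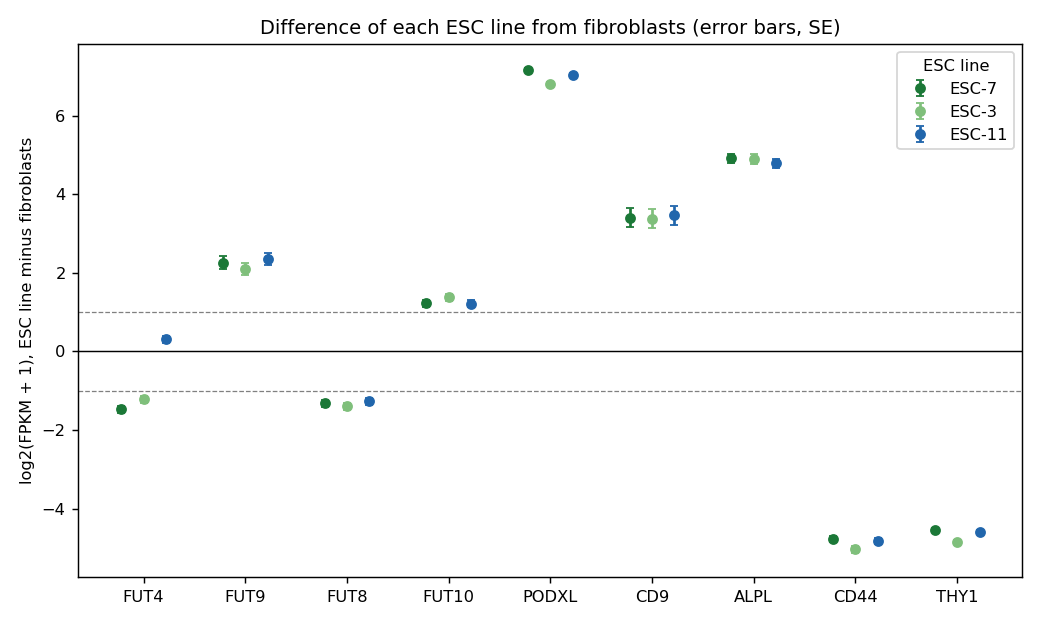
Difference of each ESC line from fibroblasts in log2(FPKM + 1), with error bars of 1 SE from limma and dashed lines at the fold minimum. PODXL is highest, at 6.80 to 7.16, CD44 and THY1 are lowest, at -5.03 to -4.54, and FUT4 is at -1.47 in ESC-7, -1.22 in ESC-3 and 0.31 in ESC-11.

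Between ESC lines, FUT4 was the 1 gene of the 9 that was called, in both comparisons with ESC-11. It fell by 1.78 on the log2 scale in ESC-7 against ESC-11 (95% interval -1.96 to -1.59, adjusted p = 1.93e-07, limma). In ESC-3 against ESC-11 it fell by 1.52 (-1.70 to -1.34, adjusted p = 7.62e-07, limma). The mean FPKM was 0.0541-fold in ESC-7 and 0.129-fold in ESC-3 that of ESC-11. FUT4 was so near 0 in ESC-7 and ESC-3 that these ratios, and the percentages of the fibroblast mean above, are rough. Over the alternative ways of processing, the log2 difference of FUT4 from ESC-11 ran from -3.65 to -0.63 in ESC-7 and from -2.68 to -0.57 in ESC-3. Of all tested loci, 2.94% were called between ESC-7 and ESC-11 and 2.48% between ESC-3 and ESC-11, with 2.14% higher and 0.799% lower in ESC-7 and 1.49% higher and 0.996% lower in ESC-3. The split for ESC-3 against ESC-11 was 272 higher and 182 lower loci, but 179 and 199 after quantile normalization and 67 and 90 over Ensembl loci alone. ESC-7 and ESC-3 differed in FUT4 by -0.26 (-0.44 to -0.07, adjusted p = 0.0309, limma), under the fold minimum, and their libraries did not overlap.

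None of the 9 genes was called between ESC-7 and ESC-3, where 3.38% of all loci were (2.34% higher and 1.04% lower in ESC-7). In limma, 4 of them had an adjusted p under 0.05, and the same number an unadjusted p under 0.05, all below the fold minimum. PODXL was 1.28-fold higher in ESC-7 in mean FPKM (log2 difference 0.36, 95% interval 0.25 to 0.46, adjusted p = 0.000221, limma). THY1 was likewise 1.28-fold higher (0.31, 0.21 to 0.42, adjusted p = 0.000509, limma), and CD44 1.25-fold (0.27, 0.08 to 0.46, adjusted p = 0.0291, limma). For each of these 3 genes no ESC-7 library overlapped an ESC-3 library, and ESC-3 was also below every ESC-11 library. By size these differences are ordinary. Of all tested loci, 73.3%, 68.3% and 62.4% had a smaller absolute difference between ESC-7 and ESC-3 than PODXL, THY1 and CD44. The share of all loci under that adjusted p, or without overlap, was not counted, so these counts are no result about the 9 genes. ESC-3 against ESC-11 gave -0.23 (-0.34 to -0.12, adjusted p = 0.00667, limma) for PODXL, -0.26 (-0.36 to -0.15, adjusted p = 0.00365, limma) for THY1 and -0.22 (-0.40 to -0.03, adjusted p = 0.0977, limma) for CD44.

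No difference of FUT9 between lines was resolved from the spread of its libraries. The difference was 0.16 (95% interval -0.20 to 0.52, adjusted p = 0.476, limma) for ESC-7 against ESC-3, -0.09 (-0.45 to 0.27, adjusted p = 0.707, limma) for ESC-7 against ESC-11 and -0.25 (-0.61 to 0.11, adjusted p = 0.301, limma) for ESC-3 against ESC-11. FUT8 and FUT10 were bounded more closely, with intervals of -0.32 to 0.27 for FUT8 and -0.36 to 0.37 for FUT10 over the 3 line comparisons. ALPL intervals ran from -0.25 to 0.39. Those of CD9 ran from -0.62 to 0.56, since its spread takes in the uneven fibroblast libraries. These intervals leave room for differences below the fold minimum.

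**Figure D4:**
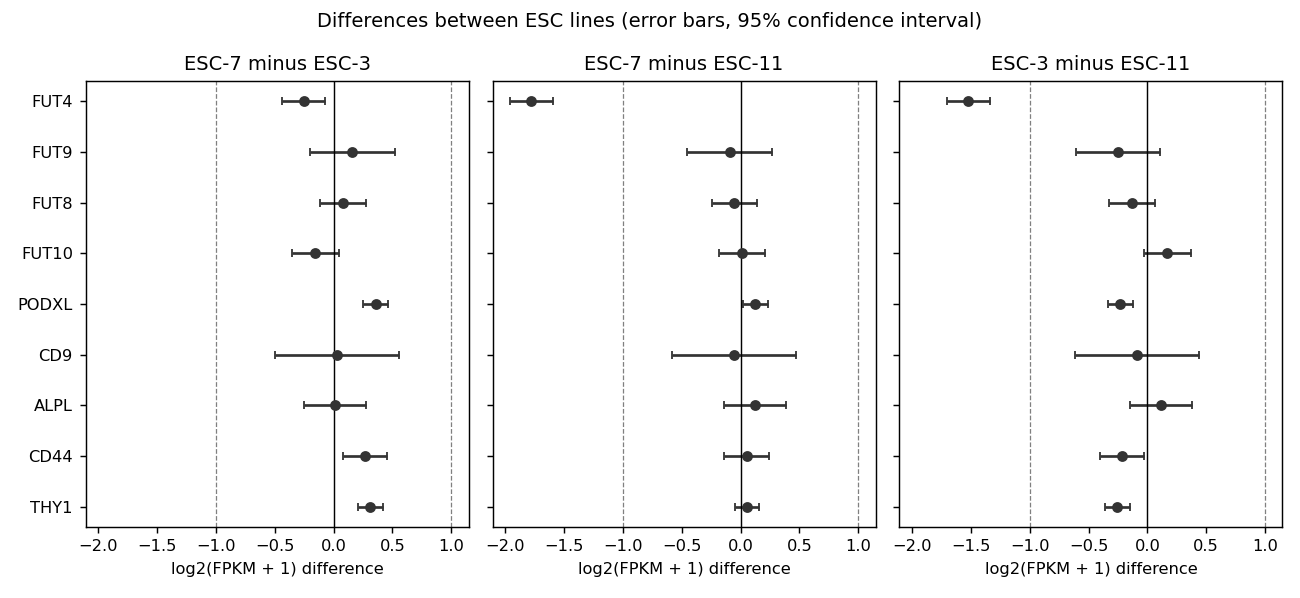
Differences between ESC lines in log2(FPKM + 1) for the 9 genes, with 95% intervals from limma. FUT4 lies at -1.78 for ESC-7 minus ESC-11, -1.52 for ESC-3 minus ESC-11 and -0.26 for ESC-7 minus ESC-3, and the other genes lie between -0.26 and 0.36.

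The order of the 4 groups differed from gene to gene. FUT4 ran from ESC-11, the highest, through fibroblasts and ESC-3 to ESC-7, and no neighbours overlapped. FUT9, FUT10, PODXL, CD9 and ALPL had fibroblasts at the bottom, and FUT8, CD44 and THY1 had fibroblasts at the top. Among the ESC lines, libraries of each gene overlapped between at least 1 pair of lines, except for FUT4.

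FUT4 was set beside the loci around it on chromosome 9, a check added after values had been seen. The 6 tested loci nearest to it belonged to GPR83, MRE11A, ANKRD49, AMOTL1 (2 loci) and CWC15, at distances of 37071 to 348925 bp. In limma 0 of the 6 were called between ESC lines, with an adjusted p under 0.05 for 2 in ESC-7 against ESC-11, 3 in ESC-3 against ESC-11 and 4 in ESC-7 against ESC-3, and an unadjusted p under 0.05 for 3, 3 and 4. Their log2 differences ran from -0.32 to 0.16 in ESC-7 against ESC-11 and from -0.37 to 0.21 in ESC-3 against ESC-11. Of all tested loci 2.94%, 2.48% and 3.38% were called in these 3 comparisons of lines, in the order above. With shares so small, 0 calls are likely for any 6 loci, so the check cannot show that the difference is confined to FUT4. The share of all loci under either p, without the fold minimum, was not counted, so those counts are no result about the 6 loci.

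The loci whose profile over the 12 libraries came closest to FUT4, by the mean absolute difference of centred log2(FPKM + 1), were PAMR1, NNAT and ZNF791. The measure was 0.222, 0.257 and 0.288 for these genes, beside a median of 0.891 over all loci. PAMR1 averaged 0.460 FPKM in ESC-7, 0.454 in ESC-3 and 5.09 in ESC-11, against 2.32 in fibroblasts. NNAT, an imprinted gene expressed from the paternal copy in mouse and human, averaged 1.59, 1.77 and 11.1 FPKM in ESC-7, ESC-3 and ESC-11, against 8.65 in fibroblasts. ZNF791, a zinc finger gene, averaged 0.143, 0.0928 and 3.49 FPKM in ESC-7, ESC-3 and ESC-11, against 3.91 in fibroblasts. All 3 were low in both parthenogenetic lines by the way they were picked.

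The genes that supply and build the glycan under the fucose were counted next, and each list's counts are to be read against the shares of all loci given above. Of 10 tested genes of GDP-fucose supply, GMDS alone was called, rising in each line. GMDS, the first enzyme of the route from GDP-mannose, was at 26.8 to 39.4 FPKM over ESC libraries, against 10.997 ± 2.11 in fibroblasts, and its log2 difference in ESC-3 was 0.99, below the fold minimum, after median-ratio scaling. Of 16 tested enzymes of the N-acetyllactosamine chain, 8 rose and 0 fell in ESC-7, 6 rose and 1 fell in ESC-3, and 7 rose and 0 fell in ESC-11. The gene that fell in ESC-3 was the galactosyltransferase B4GALT1. It was at 58.6%, 37.4% and 48.6% of its fibroblast mean in ESC-7, ESC-3 and ESC-11, so the list did not move as 1. The chain-extending B3GNT3 was at 6.33 to 8.48 FPKM in ESC libraries, against 0.0133 ± 0.0116 in fibroblasts, and the branching enzyme GCNT2 at 6.61 to 12.4, against 0.534 ± 0.112. The list's medians were 1.13, 0.84 and 0.59 on the log2 scale in ESC-7, ESC-3 and ESC-11.

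Sialyltransferases that add sialic acid to galactose, on several kinds of glycan, had 4 lower and 1 higher of 7 tested in each line. Of those that fell, ST3GAL4 is the 1 known for acting on N-acetyllactosamine, while ST3GAL1 and ST3GAL2 act on other galactose ends and ST3GAL5 on lactosylceramide. ST3GAL1 was at 0.618 to 1.67 FPKM over ESC libraries, against 10.4 ± 4.25 in fibroblasts, ST3GAL4 at 1.94 to 3.46, against 10.4 ± 0.212, and ST3GAL5 at 4.42 to 7.59, against 23.0 ± 0.683. ST6GAL2 was the gene that rose, at 2.08 to 4.39 FPKM, against 0.398 ± 0.0716, but quantile normalization ended its call in ESC-3 (0.77) and ESC-11 (0.68), and a pseudocount of 5 ended it in ESC-7 (0.73), ESC-3 (0.47) and ESC-11 (0.43). The pseudocount of 5 also ended the call of ST3GAL4 in ESC-7 (-0.91). The median log2 difference of the list was -1.44, -1.74 and -1.59 in ESC-7, ESC-3 and ESC-11. Among 7 fucosidases and lysosomal enzymes, 1 rose and 1 fell in ESC-7, 1 rose and 4 fell in ESC-3, and 1 rose and 3 fell in ESC-11. FUCA1, the lysosomal fucosidase, was at 8.18 to 12.4 FPKM in ESC libraries, against 27.5 ± 0.399 in fibroblasts, and its call in ESC-7 was lost with a pseudocount of 5 (-0.97).

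The globo-series enzymes, which make the SSEA3 and SSEA4 antigens, were mixed: 3 rose and 1 fell in ESC-7, 4 and 1 in ESC-3, and 3 and 1 in ESC-11, of 7 tested. B4GALT5 and B4GALT6 rose in each line and are also counted above with the N-acetyllactosamine chain. A4GALT and UGCG were not called. A4GALT was at 134%, 121% and 171% of its fibroblast mean in ESC-7, ESC-3 and ESC-11, and UGCG at 71.6%, 62.2% and 68.9%. B3GALNT1, the globoside synthase, was at 7.64 to 9.47 FPKM in ESC libraries, against 0.665 ± 0.198 in fibroblasts. ST3GAL2, which can complete SSEA4, fell, at 9.09 to 18.3 FPKM against 53.3 ± 4.50.

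Other surface antigens of pluripotent cells mostly rose, 13 of 19 in ESC-7, 12 in ESC-3 and 12 in ESC-11, with 2 lower in each line. EPCAM, an epithelial adhesion molecule, was at 210 to 244 FPKM in ESC libraries and at 0 in all fibroblast libraries. The placental cadherin CDH3 was at 369 to 899 FPKM, against 17.1 ± 2.66, and the glucose transporter SLC2A3 at 244 to 294, against 5.20 ± 0.183. The integrin subunit ITGB1 and the peptidase DPP4 were the 2 that fell. ITGB1 was at 162 to 218 FPKM in ESC libraries, against 956 ± 14.6 in fibroblasts.

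Partners of podocalyxin and CD9 were called in both directions. In each line 4 of 8 genes of the podocalyxin family and its membrane-to-actin adaptors rose, PODXL included, and 1 fell. The scaffold SLC9A3R1 was at 66.5 to 99.95 FPKM in ESC libraries, against 6.76 ± 0.537 in fibroblasts, and ezrin (EZR) at 169 to 195, against 70.3 ± 2.96. The ezrin call was lost in ESC-7 (0.96) and ESC-3 (0.81) after median-ratio scaling and in ESC-3 after quantile normalization (0.98). Moesin (MSN), of the same adaptor family as ezrin, fell, at 25.5 to 33.8 FPKM against 439 ± 10.4. Of 18 tetraspanins and partners, 7 rose and 3 fell in ESC-7, 6 and 3 in ESC-3, and 6 and 5 in ESC-11. Of all loci, 29.2%, 28.6% and 27.4% rose and 14.3%, 15.5% and 15.5% fell in ESC-7, ESC-3 and ESC-11. The tetraspanin list's median log2 difference was 0.21, 0.20 and 0.09, beside 0.45, 0.43 and 0.39 for all loci. Its counts were not tested against these shares and are no result about the list. The CD9 partners IGSF8 and PTGFRN rose, at 24.3 to 38.8 and 33.9 to 45.5 FPKM in ESC libraries, against 2.4 ± 0.063 and 9.14 ± 0.0518 in fibroblasts. The laminin-integrin partner CD151 fell, at 31.9 to 49.9 FPKM against 371 ± 15.8.

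The company of CD44, THY1 and ALPL was also counted. Of 8 genes of hyaluronan and CD44 partners, 1 rose in each line, and 4 fell in ESC-7, 4 in ESC-3 and 3 in ESC-11, CD44 included. The gene that rose was ESRP1, an epithelial splicing regulator that acts on CD44 exons, at 59.0 to 64.6 FPKM against 0.165 ± 0.0371. The CD44 ligand SPP1 was at 0 to 0.0722 FPKM in ESC libraries, against 26.3 ± 1.83 in fibroblasts. Of 13 mesenchymal surface markers 0 rose and 10 fell in each line, and CD44 and THY1 are themselves on that list. Genes of the list that passed the filter through fibroblast libraries alone, FAP among them, could only fall. PDGFRB was at 1.24 to 1.98 FPKM in ESC libraries, against 147 ± 3.92, and FAP, a fibroblast peptidase, at 0 to 0.0585, against 10.9 ± 0.634. Of 18 alkaline phosphatase and GPI anchor genes, 5 rose in ESC-7, 4 in ESC-3 and 4 in ESC-11, ALPL included, and 1 fell in each. These counts of higher genes are no larger a share of the list than the 29.2%, 28.6% and 27.4% of all loci that rose in ESC-7, ESC-3 and ESC-11, so they are no result about the list. PIGN, PIGA and PIGP were at 19.4 to 25.4, 14.3 to 17.6 and 24.98 to 35.3 FPKM in ESC libraries, against 7.32 ± 0.430, 5.61 ± 0.0931 and 12.1 ± 2.01 in fibroblasts. Median-ratio scaling ended the calls of PIGN and PIGA in ESC-7 and ESC-3 (0.95 to 0.97) and of PIGP in all 3 lines (0.68 to 0.83), and quantile normalization those of PIGP in ESC-3 (0.86) and ESC-11 (0.998). A pseudocount of 5 ended those of PIGA in ESC-7 (0.999) and ESC-3 (0.98) and of PIGP in ESC-3 (0.92).

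**Figure D5:**
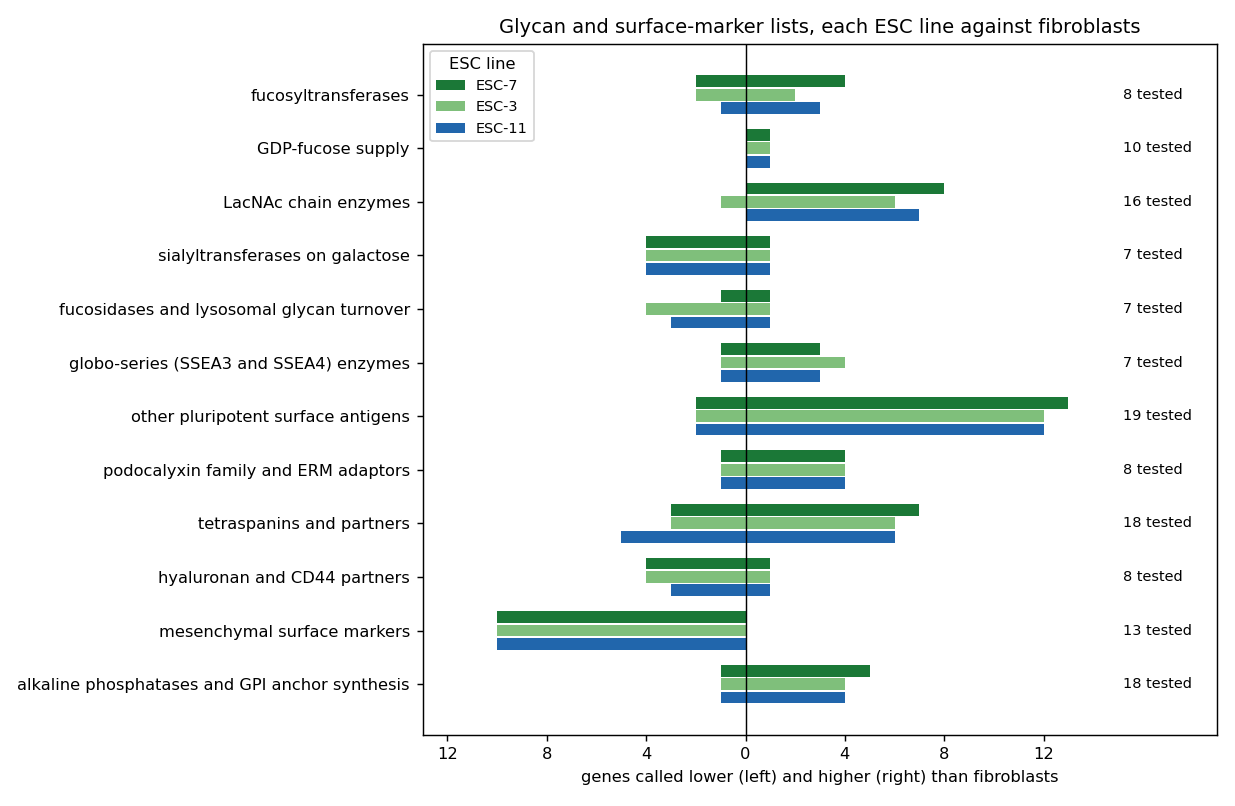
Genes of 12 lists called lower (left) and higher (right) in each ESC line than in fibroblasts, with the number tested at the right. Mesenchymal surface markers have 10 of 13 lower and 0 higher in each line, and other pluripotent surface antigens have 13, 12 and 12 of 19 higher in ESC-7, ESC-3 and ESC-11.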

How the data were processed

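TruSeq libraries of polyA RNA were sequenced with paired reads of 100 bp, per the labels' protocols. The authors deposited FPKM values for 30012 loci in 12 libraries. The build Sscrofa10.2 and the tools Cufflinks 2.1.1 and STAR 2.4.0b appear in the submitters' processing notes, with no step given for each. Strandedness and the treatment of multiply mapped reads are not given in the sources used here. The deposited table gives no read counts, so depth is unknown and no counting interval is given. Symbols come from that table.

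Values were used as log2(FPKM + 1), with no scaling. Loci with at least 1 FPKM in at least 3 libraries were tested, 18278 in all. Means of the 4 groups were fitted over all 12 libraries in 1 model with limma 3.58.1 (R 4.3.3, variance trend), two-sided, with Benjamini-Hochberg adjustment over all tested loci in each of 6 comparisons. The model was tested on simulated data. Errors beside FPKM are SD, and those beside log2 differences are SE.

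The members and the 12 gene lists were chosen with earlier results of these data known. The text names all members and, from each list, up to 4 genes per direction called alike in all 3 lines, chosen by size, and list genes called between lines. Not all of these are described, and 1 result is not reported here. ENG, FUT3, POFUT1, POFUT2, B4GALT1, A4GALT and UGCG were named outside this rule, after their values were seen. Alternatives were other pseudocounts, filters and scalings, Ensembl loci alone, loci summed per symbol, a replicate term and leaving out each library.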

Additional observations from a re-analysis of the deposited data

Results flagged for a closer look

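The difference of FUT4 from fibroblasts was not the same in the 3 ESC lines, by a test of the lines against each other in limma. The log2 difference was -1.78 for ESC-7 against ESC-11 (adjusted p = 1.93e-07) and -1.52 for ESC-3 against ESC-11 (adjusted p = 7.62e-07). FUT4 was at 0.161 ± 0.113 FPKM in ESC-7 and 0.382 ± 0.0621 in ESC-3, and at 2.97 ± 0.127 in ESC-11 (SD, n = 3 each). Both parthenogenetic lines lay below ESC-11 in all 3 of their libraries. With 1 IVF line, origin and line cannot be told apart.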

How the results depend on the processing

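No called value changed sign under an alternative. The calls of CD9, PODXL, ALPL, CD44, THY1 and FUT8 against fibroblasts held under each of the alternatives run, and 9, 9 and 8 members were called in ESC-7, ESC-3 and ESC-11 whichever library was left out. With a pseudocount of 5, calls of FUT4, FUT9 and FUT10 against fibroblasts were lost, the log2 difference of FUT4 against ESC-11 was -0.63 in ESC-7 and -0.57 in ESC-3, and 0 members were called there. With a filter at 5 FPKM, FUT4 and FUT9 were not tested and 0 members were called between lines, and with Ensembl loci alone FUT10 was not tested.

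Loci called against fibroblasts numbered 7941 in ESC-7, 8062 in ESC-3 and 7847 in ESC-11, and 4494, 4714 and 4521 with a pseudocount of 5. Between lines (ESC-7 and ESC-3, ESC-7 and ESC-11, ESC-3 and ESC-11) they numbered 618, 537 and 454. With a pseudocount of 5 these were 219, 248 and 264, with 0.1 they were 1148, 904 and 747, and for Ensembl loci alone, fewer loci by construction, 321, 209 and 157. The filter at 5 FPKM left 387 for ESC-7 against ESC-3. Leaving out each library gave 7146 to 7935, 7246 to 8070 and 7045 to 7851 against fibroblasts, and 565 to 620, 428 to 567 and 362 to 480 between lines, where 0, 1 and 1 members were called throughout. The low ends against fibroblasts came from leaving out a fibroblast library. The filter was applied anew, so loci that pass it in fibroblasts alone were lost by construction, and 17378 or 17379 loci were tested.

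Scaling changed the split of higher and lower loci against fibroblasts. It was 5330 and 2611 in ESC-7, 5230 and 2832 in ESC-3 and 5007 and 2840 in ESC-11 unscaled, 3413 and 3511, 3624 and 3515, and 3605 and 3498 after quantile normalization, and 3649 and 3675, 3562 and 3870, and 3517 and 3824 after median-ratio scaling. Between lines it was 428 and 190 for ESC-7 against ESC-3, 391 and 146 for ESC-7 against ESC-11 and 272 and 182 for ESC-3 against ESC-11 unscaled, and 348 and 244, 293 and 182, and 179 and 199 after quantile normalization. Over Ensembl loci alone it was 126 and 83 for ESC-7 against ESC-11 and 67 and 90 for ESC-3 against ESC-11. The causes were not tested.

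The replicate numbers were checked for pairing. Over 18 pairs of libraries with the same number the correlation of deviations from group means ran from -0.09 to 0.0867, none over 0.1. Over 36 pairs with different numbers it ran from -0.16 to 0.18, with 5 over 0.1. Libraries of the same number were thus no more alike by this measure, which cannot show whether they shared a batch. With a replicate block 7932, 8058 and 7843 loci were called against fibroblasts and 615, 532 and 445 between lines.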

Other observations

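Apart from FUT4, some list genes were called between ESC lines, and 4 of them are described here. KIT, the stem cell factor receptor, averaged 60.3 FPKM in ESC-7, 32.6 in ESC-3 and 83.1 in ESC-11, against 4.83 in fibroblasts, and fell by 1.32 on the log2 scale in ESC-3 against ESC-11 (adjusted p = 1.81e-08, limma). ALCAM, an adhesion molecule of the immunoglobulin family, averaged 71.9, 30.4 and 42.6 FPKM in ESC-7, ESC-3 and ESC-11, against 25.8 in fibroblasts. It rose by 1.21 in ESC-7 against ESC-3 (adjusted p = 1.03e-06, limma).

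FUT2 rose by 1.50 in ESC-7 against ESC-3 (adjusted p = 1.18e-05, limma), and by 0.69 with a pseudocount of 5, which ended the call. TSPAN6, a tetraspanin, averaged 92.6, 87.2 and 45.6 FPKM in ESC-7, ESC-3 and ESC-11, against 43.1 in fibroblasts, and rose by 1.01 in ESC-7 against ESC-11 (adjusted p = 1.87e-06, limma). With its loci summed, the TSPAN6 difference was 0.17 and the call was lost. It was also lost after quantile normalization and median-ratio scaling (0.96 each), and without replicate 1 (0.97) or 3 (0.99) of ESC-7 or replicate 1 (0.99) or 2 (0.96) of ESC-11.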
